A study of Mus musculus with 4 samples.

Results

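The neuronal intermediate filament genes *Nefl*, *Nefm*, *Nefh*, *Ina* and *Prph*, the stathmin genes *Stmn1*, *Stmn2*, *Stmn3* and *Stmn4*, and the growth cone gene *Gap43* were followed in cells sorted from the mouse neural tube with and without PRDM13. They are 10 of the 24421 genes in the deposited table and were picked by symbol. GFP+ cells were sorted by flow cytometry from neural tubes at E11.5 that carried a GFP knockin at *Prdm13*, which places GFP under the control of the *Prdm13* locus and disrupts the gene. The control cells were *Prdm13GFP/+* (Het), with GFP on 1 allele and the other allele intact, and the mutant cells were *Prdm13GFP/GFP* (Homo). Both genotypes therefore carry at least 1 disrupted allele and no library comes from cells without GFP. Homo cells carry GFP on both alleles, and whether the sort took the same kinds of cells from the 2 genotypes was not tested. The RNA of several embryos was combined into 1 pool per genotype and 2 libraries were made from each pool, so that every SD (n = 2) and every test below measures the spread of library preparation and sequencing and no difference between embryos. Levels are given as RPKM, read numbers divided by exon length and by library size, which can be compared between genes where the exon lengths used are right. The steps between RPKM values gave back the reads behind them, 11672525 and 18565037 in the Het libraries and 16575514 and 14018795 in the Homo libraries.

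*Prdm13* was listed at 114 and 127 RPKM in Het and at 310 and 324 in Homo. The table gives no position of a read within the gene, so this level does not test the labels. Markers of the dorsal lineage were present, with *Lbx1*, a homeobox gene of the dorsal interneurons, at 89.3 and 106 RPKM in Het and 59.7 and 68.1 in Homo. Of the 9 lineage genes, 4 were called higher and 5 lower in Homo, where 3.65% and 2.67% of all genes tested were. *Tlx3* and *Lmx1b*, which mark excitatory dorsal neurons, had log2 fold changes of 4.11 and 3.46. *Pax2*, which marks inhibitory dorsal neurons, had -2.62. *Lhx1*, which marks these and also the PAX2-negative dI2 dorsal interneurons, had -2.48. *Lhx5*, the most abundant of the 9 in Het, had a log2 fold change of -2.12.

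Neurofilaments are the intermediate filaments of axons. *Nefl* encodes the light chain that forms the core with the medium and heavy chains of *Nefm* and *Nefh*, whose long tails project sideways, and with alpha-internexin, the product of *Ina*, which appears early in developing neurons, while peripherin, the product of *Prph*, joins them mostly in peripheral neurons and in central neurons that send axons to the periphery. Stathmins bind tubulin dimers and favour the shortening of microtubules. Stathmin 1 is cytosolic and also found in dividing cells, whereas the products of *Stmn2* (SCG10), *Stmn3* (SCLIP) and *Stmn4* (RB3) are neuronal and held on membranes by a fatty acid anchor near the N-terminus. GAP43 is a membrane-bound protein of growing axons that binds calmodulin and is phosphorylated by protein kinase C.

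Because members of a family are alike in sequence, the coding stretch around the longest run shared by any pair of stathmins is shown, 5′ to 3′ on the coding strand, from the GENCODE annotation of GRCm38. Among the stathmins, the longest run of identical bases was 43, between *Stmn1* and *Stmn2*, and lay in exon 4 of 5 of both genes. The windows of 60 bases around this run are at chr4:134472871-134472930 (forward strand) for *Stmn1* and chr3:8554859-8554918 (forward strand) for *Stmn2*. The windows of *Stmn3* (reverse strand) and *Stmn4* (forward strand) are at chr2:181307281-181307340 and chr14:66357913-66357972. Capitals mark the 43 shared bases in *Stmn1* and, in the other genes, every base that is the same as in *Stmn1*.
Stmn1: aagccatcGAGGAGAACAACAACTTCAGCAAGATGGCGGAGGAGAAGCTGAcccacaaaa
Stmn2: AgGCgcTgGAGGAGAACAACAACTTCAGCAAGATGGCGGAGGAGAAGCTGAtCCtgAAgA
Stmn3: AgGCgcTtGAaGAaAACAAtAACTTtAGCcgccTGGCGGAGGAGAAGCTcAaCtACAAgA
Stmn4: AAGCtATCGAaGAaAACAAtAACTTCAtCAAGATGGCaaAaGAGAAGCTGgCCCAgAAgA
In these 60 bases *Stmn2* shared 52 with *Stmn1*, *Stmn4* 49 and *Stmn3* 44. Over their whole aligned coding sequences *Stmn1* and *Stmn2* were identical at 74.53% of 428 bases.

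The coding sequences of *Nefl* and *Nefm*, the filament genes that rose, were identical at 70.81% of 1593 aligned bases, with no identical run longer than 17. *Nefm* shared a run of 35 bases with *Prph*, the longest among the filament genes, 23 with *Nefh* and 19 with *Ina*. The read length is not given in the sources used here, so the number of reads that could fall wholly within such a run is not known.

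*Nefl*, *Nefm*, *Gap43* and *Stmn2* rose in Homo cells, by 2.86-fold, 2.32-fold, 2.29-fold and 1.52-fold in mean RPKM. Calls required an adjusted p under 0.05 (limma on log2(RPKM + 0.1), Benjamini-Hochberg over the 12046 genes tested) together with a fold of 1.5 or more, which is a log2 fold change of 0.585. Of the 10 genes, 8 passed the minimum of 1 RPKM, and of these 4 were called higher, against 3.65% of all genes tested. None was called lower, by limma or by limma voom on recovered reads (0 each), against 2.67% of all genes tested, and in either direction the background was 6.33%. At an unadjusted p under 0.05 with no minimum fold, 7 were higher and 1 lower, where 17.3% and 16.8% of all genes tested were. In 7 genes both Homo libraries lay above both Het libraries and in 1, *Ina*, both lay below, where 31.7% and 30.3% of all genes tested did so. The median log2 fold change of the 8 genes was 0.46, and that of all genes tested 0.01. The genes were chosen with results of these data known, so these counts describe them and are no test of the list. With 2 libraries a genotype, an exact permutation test of a single gene cannot give a two-sided p below 0.333, so the calls rest on the spread that limma pools across genes. In sorted bulk RNA, fewer cells with a transcript and less of it per cell cannot be told apart.

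**Figure D1:**
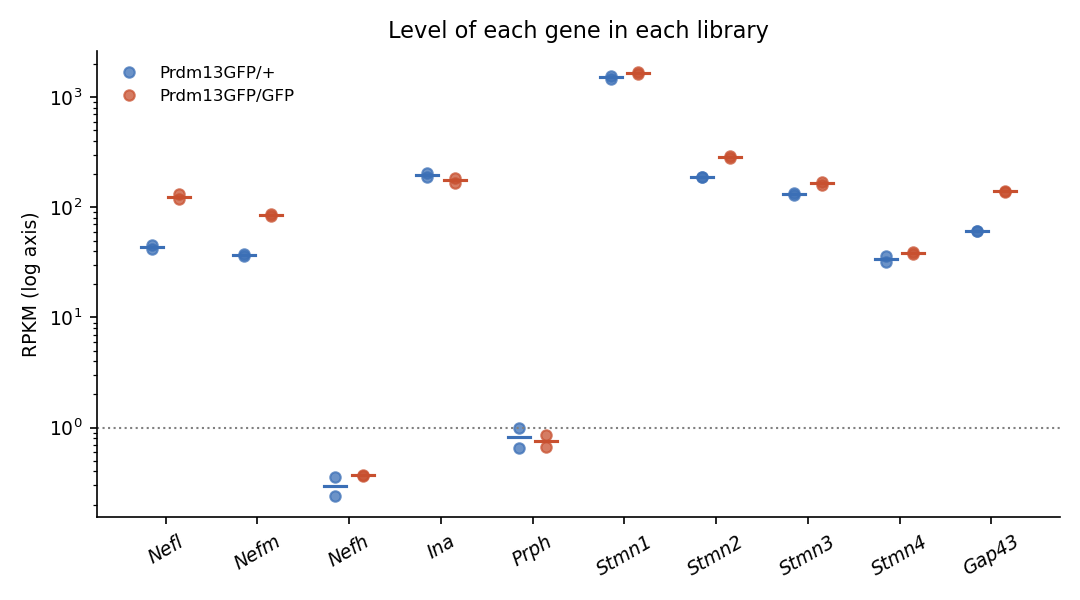
RPKM (log axis) of the 10 genes in the 2 Het libraries (blue) and the 2 Homo libraries (orange), with a bar at each mean and a dotted line at 1 RPKM, the minimum for testing. The Homo points of *Nefl*, *Nefm*, *Stmn2* and *Gap43* sit clear above the Het points, while *Nefh* and *Prph* stay under 1 RPKM in every library.

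*Nefl* had the largest change of the 10 genes. It measured 42.0 and 45.5 RPKM in Het and 118 and 132 in Homo, from 973 and 1667 reads and from 3855 and 3603. These reads rest on a solved exon length of 2001 bases, where GENCODE gives 3380, so they may be off by a whole factor, which would leave the RPKM as they are. The lower Homo library was far above the higher Het library. The mean went from 43.7 ± 2.44 to 125 ± 9.30 RPKM (SD, n = 2), a log2 fold change of 1.51 (SE 0.0677, 95% interval 1.35 to 1.67, adjusted p = 3.79e-05). Of all genes tested, 137 had a higher log2 fold change. By mean RPKM *Nefl* stood at rank 1847 of the table in Het and at rank 497 in Homo.

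*Nefm*, the medium chain, measured 37.8 and 35.9 RPKM in Het and 87.6 and 83.3 in Homo, from 1412 and 2124 reads and from 4600 and 3679. The genotypes did not overlap and the libraries of each differed little. The means were 36.8 ± 1.33 and 85.4 ± 3.06 RPKM (SD, n = 2), a log2 fold change of 1.21 (SE 0.0527, 95% interval 1.09 to 1.34, adjusted p = 3.54e-05). The ratio of *Nefl* to *Nefm* in RPKM was 1.11 and 1.27 in Het and 1.35 and 1.58 in Homo, higher in Homo. Which of the 2 transcripts was the more abundant depends on the exon lengths used. The solved length was 2001 bases for *Nefl* and 3230 for *Nefm*, where GENCODE gives 3380 and 3334. The difference in the ratio between genotypes does not depend on them.

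*Ina*, the most abundant of the 5 filament genes, did not share this rise. It measured 190 and 203 RPKM in Het and 168 and 186 in Homo, both Homo libraries lying below the lower Het library. The log2 fold change was -0.15 (SE 0.0630, 95% interval -0.304 to -0.00178, adjusted p = 0.143), and the gene was not called. On the recovered reads limma voom gave -0.16 with an adjusted p of 0.0264, and under quantile normalization the value was -0.24 with an adjusted p of 0.0391. With the replicate number as a block in limma the adjusted p was 0.0205. In each case the change was below the minimum fold.

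*Nefh*, the heavy chain, was close to the floor of the data, at 0.238 and 0.355 RPKM in Het and 0.370 and 0.366 in Homo. These values rest on 11 and 26 reads and on 24 and 20, with exact Poisson 95% intervals of 5.49 to 19.7, 17.0 to 38.1, 15.4 to 35.7 and 12.2 to 30.9 reads, which cover counting error only. *Prph* was nearly as low, at 0.649 and 0.995 RPKM in Het and 0.660 and 0.862 in Homo, from 14 and 34 reads and from 20 and 22. For *Prph* the genotypes overlapped, and for *Nefh* both Homo values lay above both Het values, by little over the higher of them. Neither gene was tested.

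The make-up of the filament transcripts shifted between the genotypes. The summed RPKM of the 5 genes was 270.3 and 285.9 in Het and 374.9 and 401.8 in Homo. *Ina* made up 70.1% and 71.1% of that sum in Het and 44.8% and 46.2% in Homo. The share of *Nefl* went from 15.5% and 15.9% to 31.6% and 32.8%, and that of *Nefm* from 14.0% and 12.6% to 23.4% and 20.7%. *Nefh* did not exceed 0.124% or *Prph* 0.348% in any library. In RPKM, there were 0.222 and 0.224 *Nefl* to 1 *Ina* in Het and 0.706 and 0.709 in Homo.

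**Figure D2:**
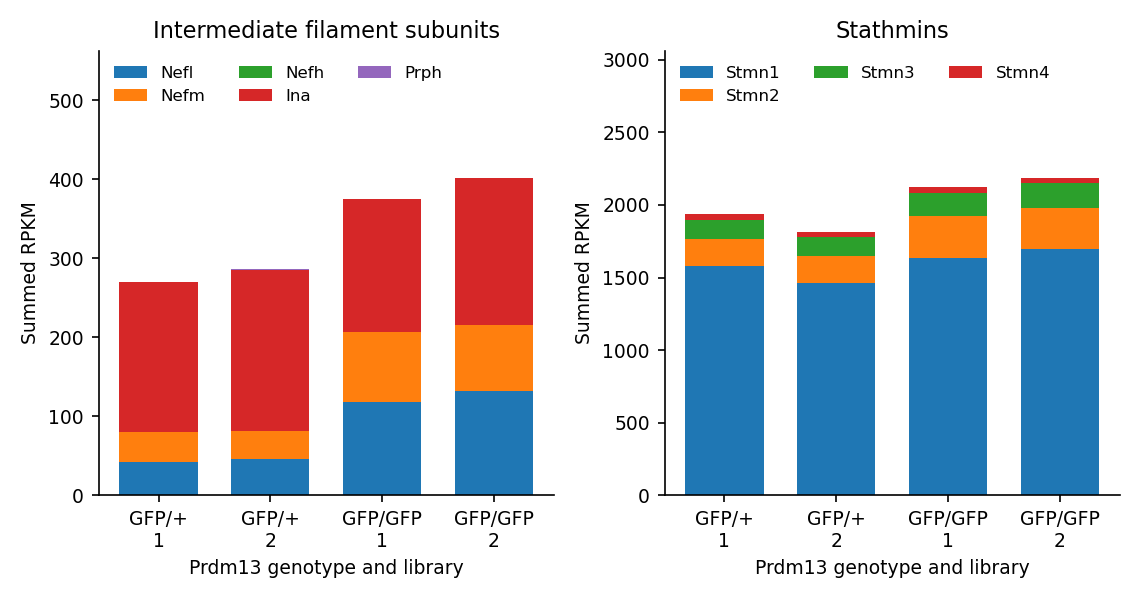
Summed RPKM of the filament genes (left) and the stathmins (right) in each library, stacked by gene. *Nefl* and *Nefm* widen in the Homo bars while *Ina* does not, and *Stmn1* fills 76.8% or more of every stathmin bar.

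Of the stathmins, *Stmn2* rose and the other 3 were not called. *Stmn2* measured 189 and 189 RPKM in Het and 293 and 283 in Homo, from 4162 and 6588 reads and from 9065 and 7362. The Het libraries were nearly equal and both Homo libraries stood well above them. The means were 189 ± 0.0359 and 288 ± 7.17 RPKM (SD, n = 2), a log2 fold change of 0.61 (SE 0.0419, 95% interval 0.51 to 0.71, adjusted p = 0.000283). The interval spans the minimum fold, and the call was lost on the fold, not on the p, under quantile normalization (0.52, adjusted p = 0.000554). Without Homo replicate 1 the log2 fold change was 0.58, just under the minimum. With no filter on RPKM the fold stayed the same and the call was lost on the p (adjusted p = 0.0619).

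*Stmn3* lay on the other side of that minimum. It measured 134 and 129 RPKM in Het and 160 and 170 in Homo, without overlap, a log2 fold change of 0.32 (SE 0.0491, 95% interval 0.20 to 0.44). Its adjusted p of 0.00684 passed and its fold of 1.25 did not. The adjusted p was 0.059 without Het replicate 2, 0.0762 without Homo replicate 2 and 0.128 with no filter on RPKM. Counting genes at an adjusted p under 0.05 whatever the fold, 5 of the 8 tested genes were higher, against 9.76% of all genes tested, and limma had 0 of them lower, against 9.95%.

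*Stmn1* was by far the most abundant of the 10, and ranked 6 by mean RPKM among all genes in both genotypes. It measured 1576 and 1461 RPKM in Het and 1632 and 1697 in Homo. The log2 fold change was 0.13 (SE 0.0504, 95% interval 0.01 to 0.25, adjusted p = 0.118) and both Homo libraries lay above both Het libraries, the nearest libraries of the genotypes being closer to each other than the Het libraries were. On the recovered reads limma voom gave 0.135 with an adjusted p of 0.0208, below the minimum fold. *Stmn4* measured 36.4 and 31.8 RPKM in Het and 39.1 and 37.7 in Homo, a log2 fold change of 0.17 (SE 0.0726, 95% interval from just above 0 to 0.35, adjusted p = 0.147). Its Homo libraries were the higher too, and the same held for the nearest libraries. With the replicate number as a block in limma its adjusted p was 0.0445, also below the minimum fold.

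Together the stathmins summed to 1936 and 1811 RPKM in Het and 2124 and 2187 in Homo. *Stmn1* made up 81.4% and 80.7% of this in Het and 76.8% and 77.6% in Homo, and *Stmn2* 9.76% and 10.4% and then 13.8% and 12.9%. *Stmn3* held between 6.94% and 7.75%, and *Stmn4* between 1.72% and 1.88%. In RPKM, the ratio of *Stmn2* to *Stmn1* was 0.120 and 0.129 in Het and 0.179 and 0.167 in Homo.

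*Gap43* measured 61.4 and 60.6 RPKM in Het and 138 and 142 in Homo, from 924 and 1445 reads and from 2921 and 2522. The libraries of a genotype were close to each other and the genotypes far apart. The means were 61.0 ± 0.533 and 140 ± 2.57 RPKM (SD, n = 2), a log2 fold change of 1.20 (SE 0.0436, 95% interval 1.09 to 1.30, adjusted p = 1.93e-05). Of all genes tested, 196 had a higher log2 fold change. Its rank by mean RPKM went from 1218 in Het to 407 in Homo, and its ratio to *Stmn2* from 0.325 and 0.321 to 0.472 and 0.501.

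**Figure D3:**
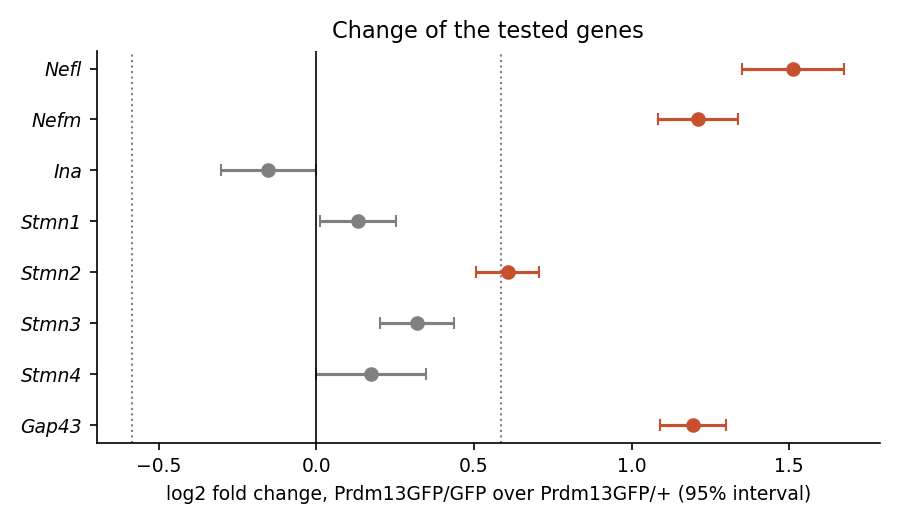
Log2 fold change of the 8 tested genes, Homo over Het, with 95% intervals, called genes in orange and a dotted line at a fold of 1.5 in each direction. *Nefl*, *Nefm* and *Gap43* lie at 1.20 or more, *Stmn2* at the line, and *Ina* alone below 0.

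**Figure D4:**
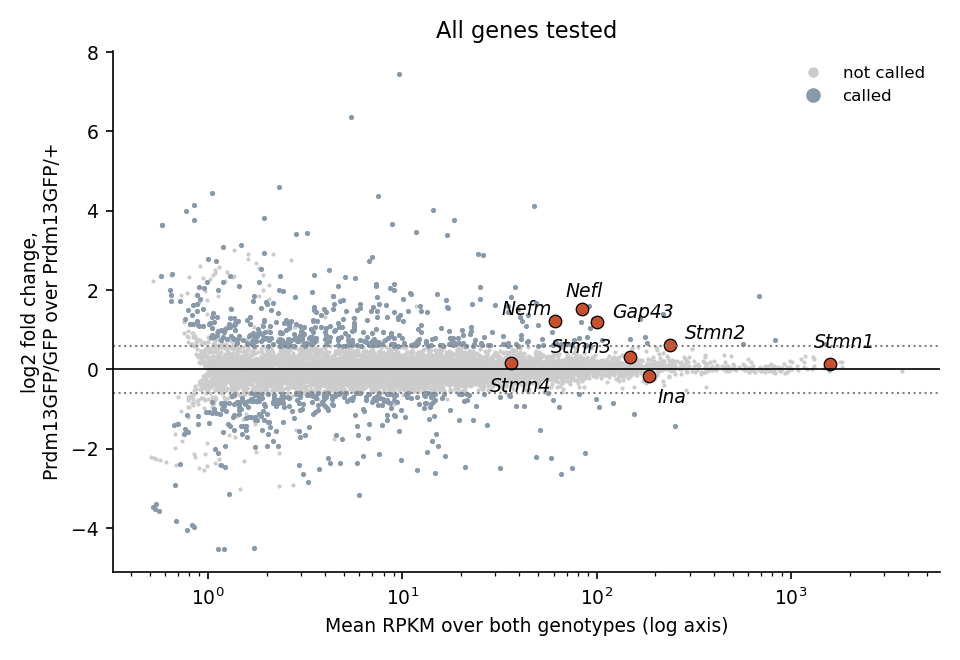
Log2 fold change against mean RPKM (log axis) for the 12046 genes tested, with the 8 tested genes of the families marked. Only 137, 190 and 196 genes lie higher than *Nefl*, *Nefm* and *Gap43*, and *Stmn1* lies near 0 at the upper end of the level axis.

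The order of the 10 genes by level changed less than their folds. In Het it ran *Stmn1*, *Ina*, *Stmn2*, *Stmn3*, *Gap43*, *Nefl*, *Nefm*, *Stmn4*, *Prph* and *Nefh*, and both libraries of each gene stood above both of the next except for *Nefm* and *Stmn4*, which overlapped. In Homo *Stmn2* moved ahead of *Ina*, and *Ina* and *Stmn3* overlapped. Reads of the 10 genes made up 0.292% and 0.281% of the recovered reads in Het and 0.353% and 0.363% in Homo.

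Among the 4270 genes with a mean of at least 20 RPKM, those with the profile most like each called gene over the 4 libraries were found by the root mean square difference of centred log2 values. For *Nefm* and *Gap43* the nearest gene was the other of that pair (0.0444), and *Ttyh1* was among the nearest 3 of both. For *Nefl* they were *Prdm13* itself (0.0662), *Pou4f1* (0.0672), which encodes the sensory homeodomain factor BRN3A, and *Chrna4* (0.0728), a nicotinic receptor subunit. For *Stmn2* they were *Slc1a2* (0.0186), *Sulf2* (0.0198) and *Tmsb4x* (0.0240), which encodes an actin monomer-binding protein. With 4 libraries in 2 genotypes this measure is set mainly by the size of the fold.

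The other cytoskeletal genes, and the lists after them, are set beside the 3.65% of all genes tested that were called higher and the 2.67% called lower. Whatever the fold, 9.76% of all genes tested passed the adjusted p higher and 9.95% lower. Of 6 other intermediate filament genes tested, 1 was called lower, the epithelial keratin gene *Krt8* (log2 fold change -0.84). *Krt8* passed the minimum through Het alone, with means of 1.59 RPKM in Het and 0.845 in Homo. *Vim*, the vimentin gene of progenitors, measured 932 and 932 RPKM in Het and 947 and 986 in Homo. *Lmnb1*, a nuclear lamin gene, had a log2 fold change of 0.05. Of 10 genes for kinases and linkers of neurofilaments, limma called 0, at an unadjusted p under 0.05 with the same fold too, and limma voom 0. Whatever the fold, 3 of the 10 passed the adjusted p higher and 1 lower. The most abundant of the 10 by the mean over both genotypes were the tail kinase gene *Gsk3b* and *Cdk5r1*, which encodes an activator of the kinase CDK5. Their log2 fold changes were -0.04 (adjusted p = 0.565) and 0.22 (adjusted p = 0.0341). Of 7 stathmin kinase genes tested, 0 were called by each of these 3 rules, and *Pak1*, the most abundant, measured 70.6 and 70.2 RPKM in Het and 86.5 and 84.7 in Homo (log2 fold change 0.28, adjusted p = 0.00717). *Prkaca* had a log2 fold change of -0.05. Whatever the fold, 2 of the 7 passed the adjusted p higher and 1 lower, *Aurkb* (-0.31), named after its value was seen.

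Among 11 tubulin genes tested, 2 were called higher. *Tuba1c*, an alpha-tubulin gene, measured 6.34 and 5.94 RPKM in Het and 44.4 and 47.4 in Homo (log2 fold change 2.88, SE 0.0640, adjusted p = 3.4e-06), and *Tubb2a*, a beta-tubulin gene, 80.4 and 79.0 and then 131 and 137. *Tuba1a*, the main neuronal alpha-tubulin gene, had a log2 fold change of 0.19 and *Tubb5* of 0.09, and neither was called. Whatever the fold, 5 of the 11 passed the adjusted p higher, *Tuba1a* (adjusted p = 0.0156) among them, and 1 lower. Among 19 genes of microtubule-associated and collapsin response mediator proteins, *Map7*, whose product recruits kinesin-1, and *Map6*, whose product stabilises microtubules, were called higher (1.10 and 0.66) and 0 were called lower by limma, by an unadjusted p under 0.05 with the same fold, or by voom. *Crmp1*, the most abundant of them by the mean over both genotypes, had a log2 fold change of 0.52 (adjusted p = 0.000623) and stayed under the minimum fold, and *Dpysl4* had 0.10.

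Of 15 other growth cone genes, 2 were called higher, against 3.65% of all genes tested. They were *Nrn1*, the neuritin gene (log2 fold change 1.47), and *L1cam*, an axonal adhesion gene (0.59). In 11 of the 15 both Homo libraries lay above both Het libraries, where 31.7% of all genes tested did so, and the median was 0.21, beside 0.01 over all genes tested. The most abundant, *Marcksl1* and *Tmsb10*, had log2 fold changes of 0.21 and 0.37. Of 12 genes for calmodulins, other calmodulin-binding proteins of the GAP43 kind, protein kinase C and palmitoylating enzymes, 1 was called higher and 2 lower. The background was 3.65% and 2.67% of all genes tested. *Nrgn*, the neurogranin gene (-1.65), and *Prkcb* (-0.73) were lower. *Pcp4* was called higher (3.40) from a low level of 0.135 and 0.937 RPKM in Het. It passed the minimum through Homo alone, with 1 and 11 reads in Het. The calmodulin genes *Calm2* and *Calm3* were not called.

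Markers of neurons as a whole and of progenitors moved in both directions. Of 11 pan-neuronal genes tested, 1 was called higher, *Syt4* (1.33), and 1 lower, *Snap25* (-0.63), with a median log2 fold change of -0.02. The background was 3.65% higher and 2.67% lower. *Tubb3*, the neuronal beta-tubulin gene, had a log2 fold change of 0.34 (adjusted p = 0.00688) and *Celf3* of 0.24. Whatever the fold, 5 of the 11 passed the adjusted p higher and 3 lower. Of 14 progenitor genes tested, *Sox1* was called lower (-0.68) and 0 were called higher by limma, by an unadjusted p under 0.05 with the same fold, or by voom, and *Fabp7*, the radial glial fatty acid-binding protein gene, had a log2 fold change of -0.07. Whatever the fold, 4 of the 14 passed the adjusted p higher and 4 lower, with a median log2 fold change of 0.02.

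**Figure D5:**
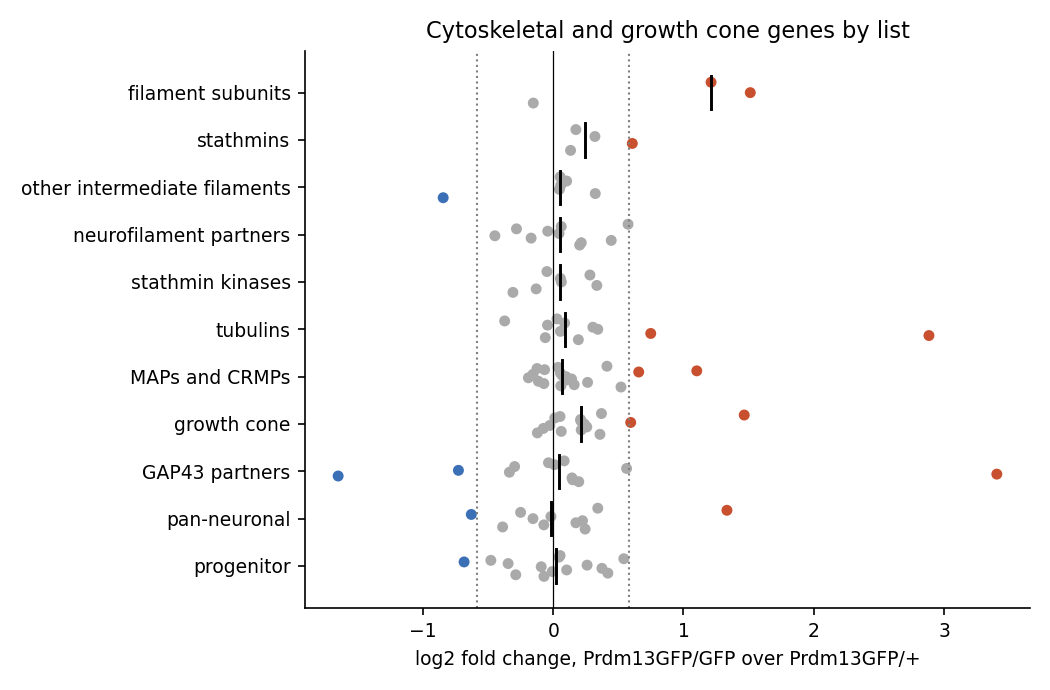
Log2 fold change, Homo over Het, of each tested gene by list, with genes called higher in orange, genes called lower in blue, a bar at each list's median and dotted lines at a fold of 1.5. The filament subunits are split between 2 high values and *Ina*, while the medians are 0.25 for the stathmins, 0.21 for the growth cone genes and between -0.02 and 0.09 for the other lists drawn.

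Some genes that mark other neurons rich in neurofilaments also rose. Of 11 dorsal root ganglion genes, 5 were tested and 4 called higher, against 3.65% of all genes tested. *Pou4f1*, the most abundant of them, measured 16.9 and 18.1 RPKM in Het and 52.9 and 52.7 in Homo, and *Tac1*, *Isl1* and *Ntrk3* had log2 fold changes of 2.74, 2.11 and 0.93. *Tac1* passed the minimum through Homo alone, with 3 and 3 reads in Het. The fifth gene tested, *Calca*, had a log2 fold change of 0.20 (adjusted p = 0.441). *Pou4f1* and *Isl1* are also genes of dorsal spinal interneurons. The list summed to 25.2 and 27.2 RPKM in Het and 72.7 and 73.1 in Homo. The 6 genes not tested did not exceed 0.899 RPKM in any library, and all are named here after their values were seen. *Scn9a* had 35 and 39 reads in Het and 76 and 67 in Homo, and *Avil* 3 and 5 and then 11 and 9, both higher in Homo in RPKM too. *P2rx3* had 35 and 69 reads in Het and 39 and 37 in Homo, lower in Homo in RPKM. *Runx1* and *Runx3* had at most 4 reads in a library and *Scn10a* at most 1.

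Of 8 motor neuron genes, only *Isl1*, which dorsal interneurons also express, was tested. It was called higher, against 3.65% of all genes tested, from 1.71 and 1.66 RPKM in Het to 7.84 and 7.38 in Homo. The list, with *Isl1* its most abundant gene, summed to 3.47 and 3.80 RPKM in Het and 8.97 and 8.58 in Homo. The 7 others, *Lhx3*, *Lhx4*, *Isl2*, *Mnx1*, *Chat*, *Slc18a3* and *Slc5a7*, did not exceed 0.565 RPKM in any library. They summed to 1.76 and 2.14 RPKM in Het and 1.13 and 1.20 in Homo, and none of them was tested. In 5 of these 7 both Homo libraries lay below both Het libraries and in 0 above. Of all genes tested, 30.3% lay below and 31.7% above in this way. Of 7 sympathoadrenal genes, 2 were tested and called higher, *Phox2a* and *Th* (3.66 and 0.75), against 3.65% of all genes tested. Both are also genes of neurons of the brainstem. *Th* was the most abundant in Het and *Phox2a* in Homo, and the list summed to 5.76 and 6.32 RPKM in Het and 24.8 and 24.1 in Homo. Of the 5 not tested, *Gata2* had 6 to 16 reads in a library, *Gata3* at most 5, *Dbh* at most 4, *Hand2* at most 2 and *Hand1* at most 1.

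The remaining lists of other cells were small or near 0. Of 6 neural crest and glial genes 3 were tested, of which *Mbp* was called higher (1.07) and *Foxd3*, the most abundant in Het, lower (-1.41). Of all genes tested, 3.65% were called higher and 2.67% lower. The sums were 14.9 and 17.4 RPKM in Het and 12.1 and 12.6 in Homo. Of 11 erythroid genes 3 were tested, with 0 called by limma, by an unadjusted p under 0.05 with the same fold or by voom, sums of 47.2 and 47.9 and then 49.7 and 48.6 RPKM, the embryonic globin genes *Hbb-y* and *Hba-x* the most abundant and 6 adult globin genes listed at 0. The endothelial genes summed to at most 3.55 RPKM in a library, the mesenchymal genes to at most 5.11 and the microglial genes to at most 0.414. The part of these other cells in the levels of *Nefl*, *Nefm*, *Stmn2* and *Gap43* was not tested.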

How the data were processed

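Reads of polyadenylated RNA were mapped by the authors to mm10 with TopHat2 2.1.0, assigned to RefSeq exons with featureCounts and scaled by TMM in edgeR 3.6.8, and the authors deposited RPKM for 24421 genes in 4 libraries. Library strandedness and read length are not given in the sources used here. The 12046 genes whose mean reached 1 RPKM in Het or in Homo were tested for genotype, the only term, on log2(RPKM + 0.1), which understates the change of low genes. The two-sided test was lmFit and eBayes with a trend (limma 3.58.1, R 4.3.3), and p was adjusted by Benjamini-Hochberg. Fold changes in the text are on that scale unless given as a fold of mean RPKM. Whole reads, used for depth and as an alternative, were recovered from the steps of the RPKM values with GENCODE exon lengths as a guide. They came out whole, within 0.01 reads plus a small margin that grew with the count, for 99.3% of 19200 genes above 0. They rest on the most likely length of each gene. That length lay within 5% of the GENCODE length for 71.7% of genes. For *Ina*, *Stmn2*, *Stmn4* and *Gap43* it was 2259, 1904, 1232 and 1301 bases, where GENCODE gives 3240, 2073, 1437 and 1420. The reads of these genes may be off by a whole factor, as those of *Nefl* may. The script was tested on simulated data. Tables and plots used Python 3.11.15, numpy 2.4.6, pandas 2.3.3, scipy 1.17.1 and matplotlib 3.10.9.

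The genes, lists and tests were chosen with earlier results of these data known. Genes named are the 10 genes and *Prdm13*, of each list up to 4 called genes by size of fold and the 2 most abundant (lists near 0 by their sums), and for each called gene the 3 with the nearest profile. Others were chosen after their values were seen, namely neighbours in the genome and low or uncalled genes of the lists. Some genes and sequences are not reported here, and such genes were taken out of the lists with their values known. Alternatives were other pseudocounts, filters, scalings and thresholds, eBayes without a trend, a replicate block, leaving out each library and limma voom. Genes above 0 in any library were tested as an alternative chosen after seeing the data. Coding sequences are GENCODE vM21 and gene positions RefSeq, both on GRCm38, matched for 10 of 10 genes.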

Additional observations from a re-analysis of the deposited data

How the results depend on the processing

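Across 16 alternatives none of the 8 tested genes changed direction, *Stmn1* being set to 0 by quantile normalization since it had the same rank in every library. The other filters and thresholds, eBayes without a trend and the replicate block leave each fold as it is, so they could not show such a change. *Nefl*, *Nefm* and *Gap43* kept their calls except without a filter on RPKM, which tested all 24421 genes and called only *Gap43* (1 gene higher, adjusted p = 0.0476), with adjusted p of 0.0619, 0.0552 and 0.0619 for *Nefl*, *Nefm* and *Stmn2*, and 30 genes higher and 14 lower in all. With genes above 0 in any library, an alternative chosen after seeing the data, 4 of the 10 were again called higher, and 445 and 332 genes in all, so the loss came with the genes at 0 throughout. With no minimum fold, 1176 genes were higher and 1199 lower in all, and *Stmn3* was called. Leaving out each library in turn gave 3 to 4 of the 10 called higher, a median log2 fold change of 0.45 to 0.48, 258 to 437 genes called higher in all and 212 to 266 lower, with the fewest, 258 and 212, without Homo replicate 2. The sample left alone in its genotype was taken to vary like the other genotype. The replicate numbers did not pair the libraries (correlation of deviations 0.0475), and with the number as a block 4 of the 10 were called higher and 459 and 342 genes in all. limma voom on recovered reads called 4 of the 10, and 453 and 359 genes in all. Depth limits *Nefh* and *Prph*, at 11 to 34 reads a library.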

Other observations

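*Nefl* and *Nefm* are neighbours on chromosome 14, 30449 bases apart and on opposite strands (RefSeq, GRCm38, chr14:68083863-68089095 and chr14:68119545-68125004). In GENCODE an exon of *Nefl* overlaps an exon of a *Nefm* transcript on the opposite strand. Of their outer neighbours, *Dock5* was near 1 RPKM in both genotypes (log2 fold change -0.37, adjusted p = 0.353) and *Adam7* was below the minimum and not tested. *A230070E04Rik*, which overlaps *Nefm*, had means of 1.37 ± 0.106 RPKM in Het and 1.32 ± 0.262 in Homo (SD, n = 2). *Nt5c2*, whose exons overlap those of *Ina* on the opposite strand, went from 13.4 ± 0.569 in Het to 15.4 ± 1.04 in Homo (mean RPKM, log2 fold change 0.19, adjusted p = 0.109) and was not called. Whether counting used strand is not given in the sources used here, so reads in the exon sequence shared by *Ina* and *Nt5c2* cannot be told apart by strand. Counting used RefSeq exons, and the RefSeq positions of *Nefl* and *Nefm* given here do not overlap. Their shared exon sequence is that of the GENCODE transcript only.

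*Prph*, itself under 1 RPKM, lies 15473 bases from *Tuba1c*, which rose from 6.14 ± 0.285 to 45.9 ± 2.14 RPKM (SD, n = 2), while *Troap*, on its other side, had a log2 fold change of -0.37 (adjusted p = 0.00765) and was not called. *Hey1*, a Notch target gene 101754 bases from *Stmn2*, was called higher with a log2 fold change of 0.67 (adjusted p = 0.00053). Of all genes tested, 3.65% were called higher. The tested neighbours of *Stmn3* (*Gmeb2* -0.02, *Rtel1* -0.06) and *Stmn4* (*Trim35* 0.03, *Adra1a* 0.07) were not called. Neither were those of *Nefh* (*Thoc5* -0.08, *Gas2l1* 0.38, *Ap1b1* -0.000696), nor *Cnnm2* (-0.38, adjusted p = 0.0357) and *Pcgf6* (0.09) beside *Ina*. *Gap43* (chr16:42248552-42340651) had a tested neighbour on its lower side, *Lsamp*, at 1.24 ± 0.563 and 1.52 ± 0.109 RPKM, which was not called.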
